A study of Mus musculus with 2 samples.

Results

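Inflammasome and interleukin-1 (IL-1) pathway genes, 10 in number, were examined in nascent RNA from mouse bone marrow-derived macrophages (BMDMs): the sensors Nlrp3, Nlrc4 and Aim2, the adaptor Pycard, the caspases Casp1 and Casp4, the pore former Gsdmd, the cytokines Il1b and Il1a, and the receptor antagonist Il1rn. The 10 genes were looked up by name among the transcripts called in each library, which carried 11054 gene names in all. Of the 10, 7 were named by at least 1 called transcript, with 24 transcripts of 43122 in the control library and 25 of 51365 in the IL-4 library. The assay was GRO-seq, global run-on sequencing, in which engaged polymerases in isolated nuclei extend their RNA with a bromine-labelled nucleotide and only that labelled RNA is captured and sequenced.

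The BMDMs came from wild-type mice aged 8-12 weeks and were grown for 6 days in L929 supernatant, the medium of a fibroblast line rich in M-CSF, on which macrophages depend. The control cells received no cytokine beyond this, and the IL-4 cells received in addition 20 ng/ml of interleukin-4, a type 2 cytokine that turns macrophages to the alternative state, for 1 hr. Run-on reactions of each condition were set up in duplicate and pooled, so there was 1 library per condition and no replicate. No p-value or replicate error could therefore be given for any difference. Neither cell type makeup nor RNA per cell was measured, so fewer cells of a type and less RNA per cell cannot be told apart. Of 11 macrophage marker genes, 10 had a called transcript in both libraries, with highest scores of 0.5 to 5.6 in control and 0.5 to 4.6 after IL-4, and Spi1 had none in either. Of 8 neutrophil markers, 2 were called in control at 0.5 to 0.6 and 3 after IL-4 at 0.1 to 0.3, and none of the dendritic cell, T cell, B cell, mast cell, fibroblast or erythroid markers was called in either library. The part of other cells in the results below was not tested.

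An inflammasome is a protein complex that a cytosolic sensor builds when it meets a microbial product or cell damage. NLRP3 answers to many forms of damage, NLRC4 to bacterial flagellin and secretion proteins through the NAIP proteins, and AIM2 to DNA in the cytosol. The sensors recruit caspase-1, in most cases through the adaptor ASC, which Pycard encodes. Caspase-1 cleaves pro-IL-1 beta into its active form and cleaves gasdermin D, whose released fragment opens pores in the plasma membrane, and caspase-4 (also called caspase-11 in mice) cleaves gasdermin D after binding bacterial lipopolysaccharide. IL-1 alpha and IL-1 beta act through the same receptor, which IL-1RN blocks. In macrophages, Nlrp3 and Il1b are known to be transcribed at a low level until an inflammatory stimulus arrives.

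The value in the files was a score per called transcript, a contiguous stretch of nascent RNA on 1 strand, and it was printed to 1 decimal. A score therefore stands for anything within 0.05 of the printed number. Each gene was given, per library, the highest score of any transcript that bore its name and overlapped it on its own strand. Ratios of IL-4 over control were taken on the log2 scale and centred on their median over the 6752 genes that had both values, which was -0.34, a fold of 0.791. A centred difference of 2-fold was used as the limit for a change, and the rounding range states which ratios the printed decimals allow, not how replicates would vary.

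The 6 members with a transcript inside the gene were Nlrp3, Nlrc4, Aim2, Pycard, Casp4 and Gsdmd, the same 6 in both libraries. Casp1, Il1b, Il1a and Il1rn had none in either library. Among all 21955 protein-coding genes, 32.7% had an own-strand transcript inside the gene in control and 34.5% after IL-4. Pycard was lower after IL-4 and Casp4 higher, each past 2-fold, and neither was past 2-fold over its whole rounding range. Across all genes 8.23% were lower and 8.29% higher past the same limit, and 1 of 6 members in each direction is too small a count to set apart from these shares. Without centring, the printed highest score was lower after IL-4 in 4 members, equal in 1 and higher in 1. The median gene was itself lower in print, at a fold of 0.791, and no share over all genes was computed for this count. The median centred log2 ratio of the 6 members was -0.32.

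Promoter stretches are shown for 4 members to place their starts beside the calls. Casp4 had a transcript at its start in both libraries, Pycard had one within exon 1, Nlrp3 had none before exon 2, and Il1b had none at all. Each runs 5′ to 3′ in the direction of the gene from 150 bases before the RefSeq start (GRCm38.p6) to 30 bases after it (for Nlrp3 and Casp4, 1 of 2 RefSeq starts), and capitals mark letters that match a motif searched.
Nlrp3: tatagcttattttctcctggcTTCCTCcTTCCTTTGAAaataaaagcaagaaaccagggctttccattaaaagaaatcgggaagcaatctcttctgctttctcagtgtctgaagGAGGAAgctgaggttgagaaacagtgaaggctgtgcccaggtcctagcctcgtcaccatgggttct
Casp4: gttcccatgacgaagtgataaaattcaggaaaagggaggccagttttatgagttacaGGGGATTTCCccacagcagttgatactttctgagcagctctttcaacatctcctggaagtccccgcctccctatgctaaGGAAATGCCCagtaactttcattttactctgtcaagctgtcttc
Pycard: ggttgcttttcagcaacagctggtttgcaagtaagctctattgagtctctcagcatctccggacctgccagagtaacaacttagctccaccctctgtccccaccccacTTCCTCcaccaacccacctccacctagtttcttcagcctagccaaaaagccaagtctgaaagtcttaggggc
Il1b: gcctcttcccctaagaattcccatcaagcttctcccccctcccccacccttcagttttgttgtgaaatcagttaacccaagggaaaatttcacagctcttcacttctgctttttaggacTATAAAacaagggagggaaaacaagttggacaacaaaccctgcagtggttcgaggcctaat
The intervals were chr11:59542536-59542715 on the plus strand for Nlrp3, chr9:5308699-5308878 on the plus strand for Casp4, chr7:127993838-127994017 on the minus strand for Pycard and chr2:129371110-129371289 on the minus strand for Il1b. Motifs, 5 in number, were searched on both strands in windows from 250 bases before to 50 after each start. For STAT6, the factor activated by IL-4, the letters were TTCNNNNGAA, the palindrome it is known to bind. For NF-kB they were GGGNNTTTCC. For AP-1 they were TGANTCA. For PU.1, a factor that macrophages depend on, they were the site core GAGGAA. For the TATA box they were TATAAA. In the printed stretches no base belongs to more than 1 match. Positions are counted from the start base as 0 to the first base of a match. In the Nlrp3 stretch the capitals are a STAT6-type palindrome at -122 and PU.1-type cores at -129 (on the other strand) and -36. A further core lay upstream of that stretch at -220. In the Casp4 stretch the capitals are NF-kB-type letters at -93 and, on the other strand, at -14. In the Pycard stretch they are a PU.1-type core at -42 on the other strand, and in the Il1b stretch a TATA box at -31.

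Windows were found for 9 of the 10 members, 13 windows in all because some genes have more than 1 start. Windows of 1 gene can overlap and then share a match. The STAT6-type palindrome was in 3 of the 13 windows, at Nlrp3 and Il1rn, and in 6.95% of all 32851 windows. The NF-kB-type letters were in 4, at Casp4 and Il1rn, against 1.63% of all windows. The AP-1-type letters were in 2, at Il1a and Il1rn, against 7.81%, and the PU.1-type core was in 5, against 28.3%. The TATA box letters were in 3, at Il1b, Il1a and Il1rn, against 13.6%. At Il1rn they lay on the other strand at 14, downstream of the start. The other Nlrp3 window, at the annotated gene start, held 0 matches. Nlrc4 had none of the 5 motifs in its window. These are letter matches and no binding was measured. An own-strand transcript overlapped the window of Casp4 and of Nlrc4 in each library and of no other member that had a window. Gsdmd had no window, and its transcripts at the start are given below.

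Nlrp3 (ENSMUSG00000032691.14, chromosome 11, 59541568 to 59566956, plus strand) encodes the sensor with the broadest range of triggers. Its highest in-gene score was 0.5 in control and 0.3 after IL-4. Centred, the log2 ratio was -0.40, and rounding allows -0.80 to -0.02. This did not reach 2-fold. By name the gene held 7 control transcripts and 5 IL-4 transcripts. The file named transcripts in the downstream part of the gene after Olfr222, an olfactory receptor gene whose start lies nearer, and with those counted by position Nlrp3 had 9 in control and 7 after IL-4.

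Along Nlrp3 the scores of transcripts present in both libraries were 0.4 and 0.3 in exon 2 of 10, which lies closest to the start. They were 0.2 and 0.2 in exon 4, 0.4 and 0.1 in exon 5, and 0.4 and 0.3 in intron 5, each with the control first. In intron 6, under the Olfr222 name, they were 0.4 and 0.1. No pair was higher after IL-4. The strongest control transcript, 396 bp in intron 2 (59546453 to 59546848) with a score of 0.5, had no counterpart after IL-4. Control also had transcripts of its own of 161 bp in exon 4 (score 0.4), 182 bp in intron 5 (0.1) and 554 bp in exon 9 (0.2), and the IL-4 library had its own in intron 5 (537 bp, 0.1) and intron 7 (259 bp, 0.1).

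The called stretches of Nlrp3 covered 3239 bp or 12.8% of the gene in control and 2396 bp or 9.44% after IL-4. Score multiplied by length and summed over them, a measure of the whole called signal in a gene, was 1038.4 score × bp in control and 404.4 after IL-4. The ratio was 0.389, with a rounding range of 0.237 to 0.598. Over the 8158 genes with such a sum in both libraries the median log2 ratio was 0.13, and centred on it Nlrp3 stood at -1.49 (rounding range -2.21 to -0.87). By this sum Nlrp3 was thus past 2-fold lower, which its highest score was not, and 16.6% of all genes were lower and 16.8% higher past 2-fold by the same sum.

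**Figure D1:**
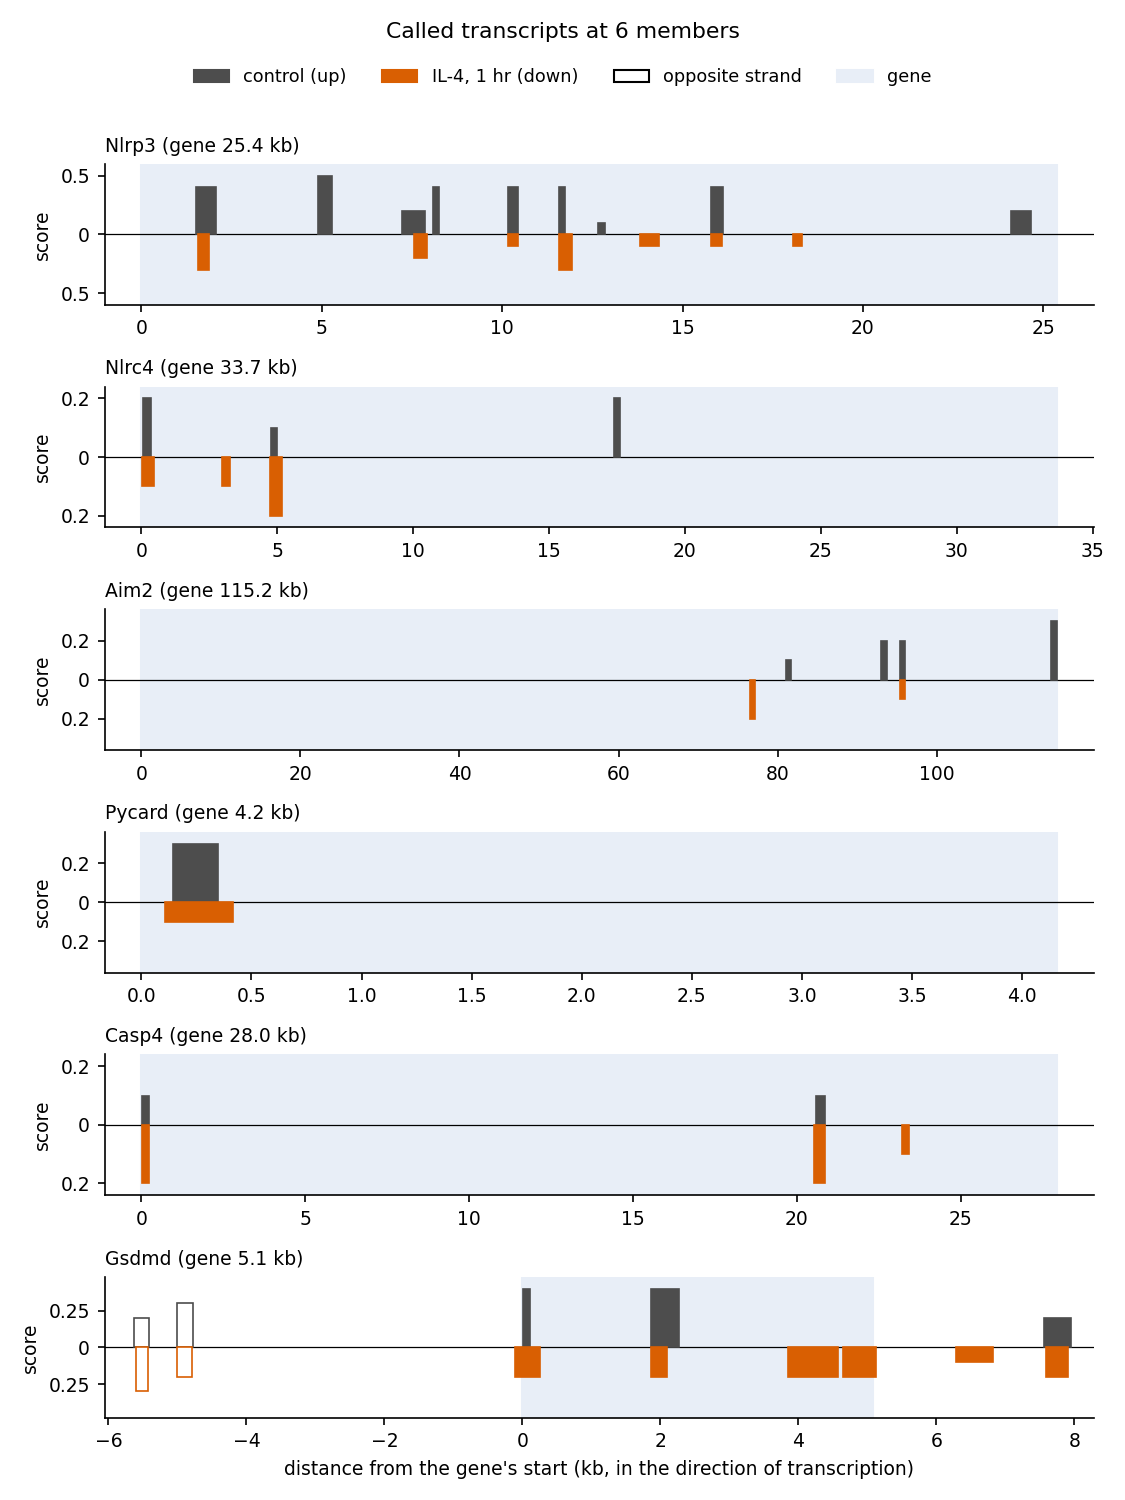
Called transcripts at the 6 members with an in-gene transcript, placed by distance from the annotated gene start (kb, in the direction of transcription) and with height equal to the score, control upward and IL-4 downward from 0. Filled bars lie on the gene's own strand, open bars on the opposite strand, the shaded span is the gene, and the shortest transcripts are drawn wider than scale so that they can be seen. Nlrp3 has 9 control and 7 IL-4 transcripts spread over its length, and the open bars at Gsdmd lie outside the gene. Transcripts outside Pycard are not drawn.

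Nlrc4 (ENSMUSG00000039193.9, chromosome 17, 74425438 to 74459142, minus strand) had 3 in-gene transcripts in each library. Its highest score was 0.2 in control and 0.2 after IL-4. Centred, the log2 ratio was 0.34, and the rounding range of -0.40 to 1.08 includes no change. Both libraries had a transcript near the start in intron 1, scoring 0.2 in control (290 bp) and 0.1 after IL-4 (425 bp). A second pair lay in intron 1 in a copy of the long terminal repeat element RLTR26B_MM, scoring 0.1 in control (235 bp) and 0.2 after IL-4 (471 bp). The 2 pairs thus went opposite ways in print. The called stretches covered 2.27% of the gene in control and 3.55% after IL-4, and summed score × length was 129.3 and 166.7, a ratio of 1.29 with a rounding range of 0.638 to 2.49.

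Aim2 (ENSMUSG00000037860.15, chromosome 1, 173350879 to 173466040, plus strand) had 4 in-gene transcripts in control against 2 with IL-4. The annotated gene begins well upstream of the RefSeq start at 173420604, and all its transcripts lay downstream of that start. Its highest score was 0.3 in control, in the last exon (exon 9 of 9, 126 bp), and 0.2 after IL-4, in an ERVK long terminal repeat in intron 1 (170 bp). The centred log2 ratio was -0.25 with a rounding range of -0.88 to 0.34, which includes no change. The 1 stretch called in both libraries, 235 bp in a low-complexity part of intron 2, had the same ends and scored 0.2 in control and 0.1 after IL-4. Called stretches covered 0.669% of the annotated gene in control and 0.352% after IL-4, the smallest shares of the 6. Summed score × length was 144.6 in control and 57.5 after IL-4, a ratio of 0.398 (rounding range 0.203 to 0.733), or -1.46 when centred (-2.43 to -0.58). Like Nlrp3, Aim2 was past 2-fold lower by the sum and not by the highest score.

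Pycard (ENSMUSG00000030793.4, chromosome 7, 127989708 to 127993867, minus strand) had a single in-gene transcript in each library, in exon 1 of 3. It ran from 127993521 to 127993720 with a score of 0.3 in control and from 127993449 to 127993759 with a score of 0.1 after IL-4. The centred log2 ratio was -1.25 with a rounding range of -2.47 to -0.40, so the gene was past 2-fold lower as printed and the range reaches above that limit. The IL-4 transcript was longer, 311 bp against 200 bp, and covered 7.48% of the gene against 4.81%. Score × length was 60.0 in control and 31.1 after IL-4, a ratio of 0.518 (rounding range 0.222 to 0.933), or -1.08 when centred. Pycard was thus past 2-fold lower by both measures as printed.

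Casp4 (ENSMUSG00000033538.13, chromosome 9, 5308828 to 5336783, plus strand) had 1 transcript of its own name in each library, at the start whose promoter stretch is printed above. It scored 0.1 in control (235 bp) and 0.2 after IL-4 (192 bp). The log2 ratio was 1.34 when centred, with 0.34 to 2.66 allowed by rounding. Casp4 was the only member past 2-fold higher, and its control score is the lowest that a called member transcript had. A further stretch in intron 7 carried the name of the downstream gene Casp12 and scored 0.1 in control (294 bp) and 0.2 after IL-4 (363 bp), and a second one in the same intron was called after IL-4 alone (207 bp, 0.1). With these counted, the called stretches of Casp4, 2 in control and 3 after IL-4, covered 1.89% and 2.73% of the gene. Summed score × length was 52.9 and 131.7, a ratio of 2.49 (rounding range 1.18 to 6.42), or 1.18 when centred (0.11 to 2.55). Neither rounding range stays above 2-fold. With the sum taken over the own-name transcript alone the centred value was 0.57, which is not past 2-fold, so the call by the sum rests on the stretches named Casp12.

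Casp1 (ENSMUSG00000025888.5, chromosome 9, 5298517 to 5307265, plus strand), which lies directly upstream of Casp4 on the same strand, had no transcript in either library on either strand. The nearest call was the Casp4 start transcript, 1574 bp beyond the end of Casp1 in control and 1598 bp after IL-4.

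Gsdmd (ENSMUSG00000022575.5, chromosome 15, 75862327 to 75867408, plus strand) had a lower printed score and a larger covered length after IL-4, as Pycard did. Its highest score was 0.4 in control and 0.2 after IL-4. The log2 ratio was -0.66 when centred, with -1.25 to -0.15 allowed by rounding. Control had 2 transcripts inside the gene, at the start (103 bp, 0.4) and in exon 3 of 11 (400 bp, 0.4). The IL-4 library had 4, at the start (349 bp), in exon 3 (235 bp), in intron 8 (727 bp) and in exon 11 (477 bp), each with a score of 0.2. The last 2 had no counterpart in control and lie in the downstream part of the gene.

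Called stretches covered 503 bp or 9.9% of Gsdmd in control and 1788 bp or 35.2% after IL-4, a ratio of 3.55. Summed score × length was 201.2 in control and 357.6 after IL-4, a ratio of 1.78 with a rounding range of 1.18 to 2.54. Centred, this was 0.70 (0.11 to 1.21), on the other side of 0 from the highest score. Outside the gene, 3 transcripts in control and 4 after IL-4 carried its name. In each library 2 of these lay on the opposite strand about 5 kb upstream, scoring 0.2 and 0.3 in control and 0.3 and 0.2 after IL-4 in order of position. Downstream on the gene's own strand, a transcript 2483 bp past its end scored 0.2 in control and its counterpart scored 0.2 after IL-4, and a second one, 1200 bp past the end, was called after IL-4 alone with a score of 0.1.

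**Figure D2:**
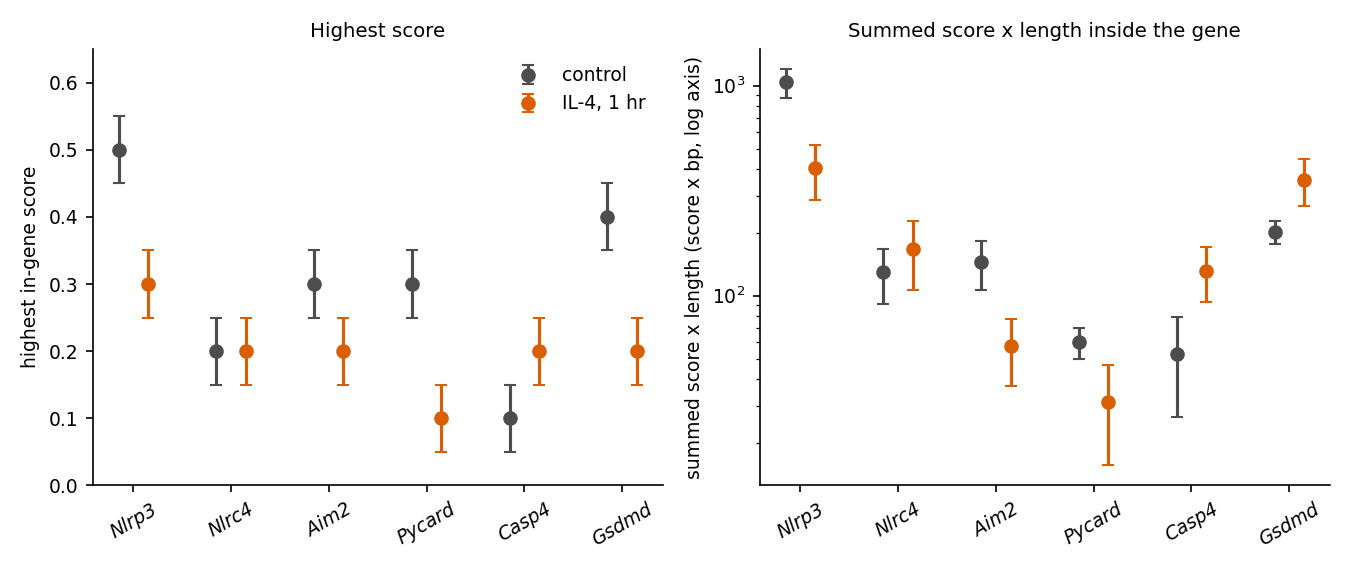
Highest in-gene score (left, linear axis from 0) and summed score × length inside the gene (right, log axis) of the 6 members in control and after 1 hr of IL-4, 1 library each. Bars show the range that rounding allows and are not replicate errors. At Gsdmd the highest score is 0.4 in control and 0.2 after IL-4 while the sum is 201.2 and 357.6, and at Nlrp3 both measures are lower after IL-4.

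The order of the 6 genes by the share of the gene covered was nearly the same in both libraries. In control it ran from Nlrp3 (12.8%) through Gsdmd (9.9%), Pycard (4.81%), Nlrc4 (2.27%) and Casp4 (1.89%) to Aim2 (0.669%). After IL-4 Gsdmd (35.2%) came before Nlrp3 (9.44%), and the other 4 followed in the same order. No spread over samples exists from which to say whether neighbours in this order differ. Of the rounding ranges of the centred highest score, 2 included 0, those of Nlrc4 and Aim2. A range without 0 does not show a change, because it covers the printed decimals alone. The share of such ranges over all genes was not computed.

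**Figure D3:**
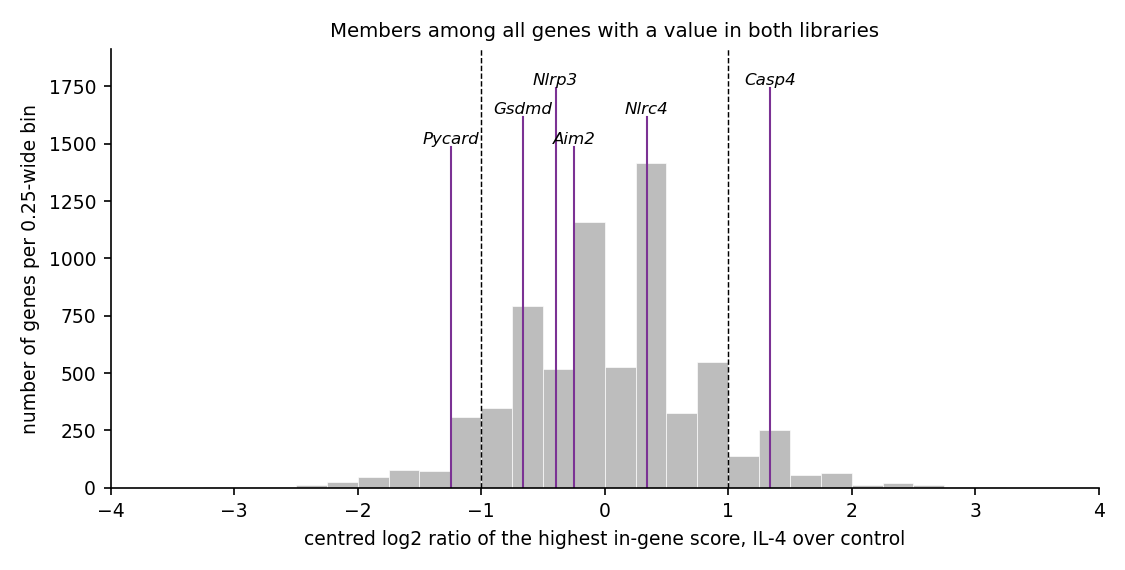
Centred log2 ratio of the highest in-gene score (x axis, IL-4 over control) for the 6752 genes with a value in both libraries, as the number of genes in bins of width 0.25 (y axis), with purple lines at the 6 members and dashed lines at 2-fold. Scores were printed to 1 decimal, so only certain ratios can occur and the bars are uneven. Pycard (-1.25) and Casp4 (1.34) lie outside the dashed lines and the other 4 members inside.

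No transcript was called inside either cytokine gene in either library. Il1b (ENSMUSG00000027398.13, chromosome 2, 129364570 to 129371139, minus strand) had 1 transcript of its name in each library, on the plus strand in a copy of the LINE element HAL1, 66.8 kb from the gene. It was 42 bp long with a score of 1.3 in control and 45 bp long with a score of 1.0 after IL-4. The nearest call on the strand of Il1b lay 166.1 kb away and was named Slc20a1. No score in the files is therefore a measure of Il1b itself. Il1a (ENSMUSG00000027399.1, chromosome 2, 129299610 to 129309972, minus strand) was named by no transcript, and the nearest call was 100.5 kb away in control. After IL-4 a plus-strand transcript with a score of 0.2 was called 2.0 kb from Il1a (129297378 to 129297569), under the name Gm14023. Il1rn (ENSMUSG00000026981.15, chromosome 2, 24336853 to 24351494, plus strand) was also named by none, and the nearest call in either library was 35.0 kb away, at Psd4.

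A missing call is not a value of 0. Transcripts were called in each library on its own, and no called transcript had a score × length, at the upper end of its rounding, under 25.5 score × bp in control or 25.35 after IL-4. A weaker stretch in Casp1, Il1b, Il1a or Il1rn would have no row in the files. The reads were not examined, and the sequencing depth behind the calls is unknown. These 4 genes had no called transcript inside the gene in either condition, so no direction can be given for them.

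Called stretches were also followed one by one. Among the in-gene transcripts that carried a member's name, 18 in control and 16 after IL-4, 11 pairs overlapped between the libraries. The score was lower after IL-4 in 8 pairs, equal in 1 and higher in 2, as printed and without centring. The 2 higher pairs were the start of Casp4 and the long terminal repeat in Nlrc4. Over all 18877 such pairs, 54.4% were lower and 23.1% higher. No counterpart was found for 7 of the 18 control transcripts, of which 3 were in Nlrp3, 3 in Aim2 and 1 in Nlrc4, against 35.0% of all in-gene transcripts in control. After IL-4, 5 of 16 had none, 2 in Gsdmd and 1 each in Nlrp3, Aim2 and Nlrc4, against 46.4% of all. A repeat or low-complexity element was named for 5 of the 18 and 5 of the 16. The share over all in-gene transcripts was not computed for this count, so it cannot be read as a trait of the members. The median length of the members' in-gene transcripts was 235 bp for control and 330 bp for IL-4, beside 227 and 312 bp over all in-gene transcripts.

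A list of 75 other genes of the pathway gave the setting. The list held further sensors and their regulators, further caspases and pyroptosis genes, IL-1 family ligands and binding proteins, their receptors, and the kinases and adaptors that signal below the receptors. Of the 73 found in the annotation, 33 were called inside the gene in both libraries, 5 in control alone and 5 after IL-4 alone. Over all genes, 7455 were called inside the gene in control and 7880 after IL-4, and 6752 had a value in both. The share called in 1 library alone was not computed over all genes, so the 5 and 5 cannot be read as a trait of the list. By highest score none of the 33 was past 2-fold higher, beside 8.29% of all genes, and 6 were lower, or 18.2%, beside 8.23%. Over the whole rounding range 5 were lower, beside 3.94% of all genes. The median centred log2 ratio of the 33 was 0.08. By summed score × length over own-name transcripts, 5 of the 33 were past 2-fold higher and 9 lower, beside 16.7% and 17.2% of all genes, so the absence of higher genes depends on how the gene value is made. By role, with no share of their own to set beside such small numbers, 2 of 15 sensors and regulators, 0 of 6 caspases and pyroptosis genes, the 1 ligand or binding protein with values, and 3 of 11 downstream genes were lower.

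Irak2, a kinase that carries the signal from IL-1 and Toll-like receptors, had the ratio farthest from 0 among the 33. Its highest score was 6.2 in control and 1.3 after IL-4, at a stretch of 81 and 78 bp in intron 2. The centred log2 ratio was -1.91, and rounding allows -1.98 to -1.85. The gene had 14 in-gene transcripts in control and 5 after IL-4, so the number of called stretches was lower as well. They covered 4.74% of Irak2 in control and 1.21% after IL-4. The ratio of the highest score is that of 1 short stretch. The median score of the called stretches stood at 0.25 for control and 0.4 for IL-4, each over the stretches called in that library alone. In 4 of the 6 lower genes the covered share of the gene was larger after IL-4: Il18bp (3.94% in control and 17.1% after IL-4), Naip2 (0.498% and 1.1%), Nlrp1b (2.82% and 4.12%) and Peli1 (3.3% and 4.05%). Over all genes, called in-gene transcripts were also longer after IL-4 (median 312 bp against 227 bp) and more numerous (34341 against 28645). How many of all genes had a larger covered share was not computed. Peli1 and Peli2 encode Pellino ubiquitin ligases that act on the IRAK kinases. Peli1 had highest scores of 2.3 and 0.9 in a LINE element in intron 1 (-1.01, rounding range -1.13 to -0.90), and Peli2 had 1.4 at a simple repeat in control and 0.4 at a SINE after IL-4 (-1.47, -1.71 to -1.25). Peli1, whose range crosses the limit, had 9 in-gene transcripts in each library. Downstream genes with little difference in print were Myd88, the adaptor of the receptor family (0.6 and 0.5, centred log2 ratio 0.08), and Tab2 (3.1 and 3.1, centred log2 ratio 0.34).

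Il18bp encodes the secreted binding protein that neutralizes IL-18. Its highest score was 1.1 in control (150 bp) and 0.3 after IL-4 (212 bp), in intron 1. Centred, its log2 ratio was -1.54 (-1.86 to -1.25). Il18 itself had no transcript in either library. Among sensors, Naip2, a partner of NLRC4, had 0.7 and 0.2 (-1.47, -1.98 to -1.04), and Nlrp1b, a sensor of bacterial proteases, had 2.1 and 0.7 at a stretch with a CA simple repeat in control (-1.25, -1.39 to -1.11). Naip2 and Nlrp1b belong to clusters of near-identical genes between which reads can be split, so their values are uncertain. P2rx7, the ATP-gated channel upstream of NLRP3, had 2.0 and 1.3 (centred log2 ratio -0.28), and Nek7, which binds NLRP3, had 1.4 and 1.3 (0.23). Neither reached 2-fold.

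Some genes of the list were called in 1 library alone. Il1rap, the shared co-receptor of the IL-1 family, had a promoter transcript of 118 bp scoring 0.4 after IL-4 and none in control. It was the only receptor gene of 8 with any in-gene transcript. Of all protein-coding genes, 32.7% had one in control and 34.5% after IL-4. A count of 1 in 8 is too small to set apart from these shares. Ripk3, the kinase of necroptosis, had a promoter transcript of 83 bp with a score of 0.4 in control alone. Peli3 had a transcript of 119 bp in exon 1 with a score of 0.3, also in control alone.

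**Figure D4:**
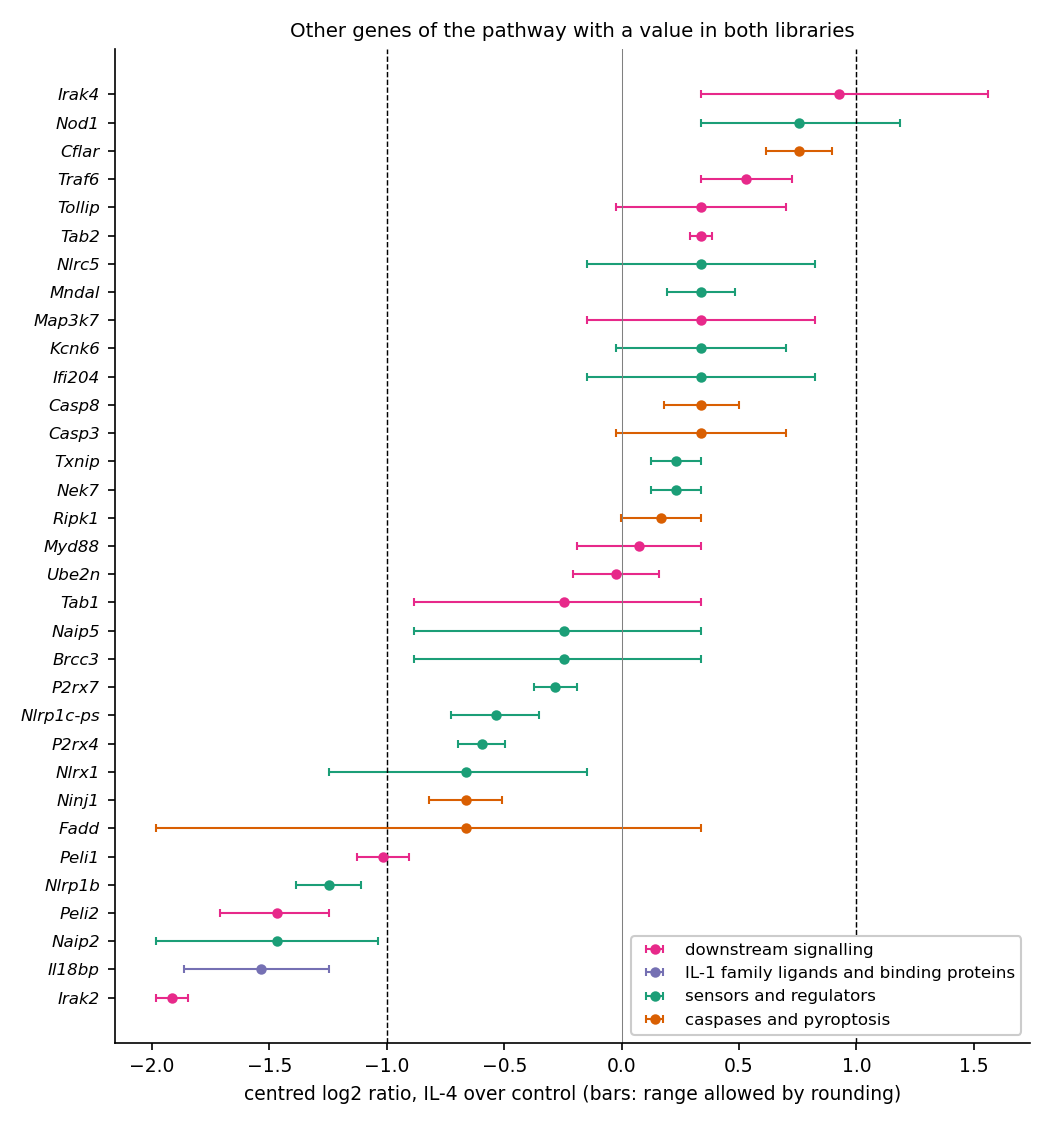
Centred log2 ratio of the highest in-gene score (x axis, IL-4 over control, 1 library each) for the 33 other pathway genes with a value in both libraries, 1 gene per row, coloured by role. Horizontal bars show the range that rounding allows and dashed lines mark 2-fold. Irak2 (-1.91) lies farthest to the left, 6 genes lie past the left line and none past the right.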

How the data were processed

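GRO-seq libraries of control BMDMs and BMDMs treated with IL-4 were compared, 1 library each (n = 1), grouped by the treatment label. The authors aligned reads to mm10 (GRCm38) with BWA (version 0.7.10 in the submitters' processing notes, which also list SAMtools 0.1.19), filtered out ENCODE artifact regions, and called strand-specific transcripts library by library with HOMER (4.2). The deposited value was HOMER's peak score per transcript, rounded to 1 decimal. Whether this score was scaled to library size is not given in the sources used here, and the depth is unknown, so no interval that needs counts was computed. Median scores were 0.3 in control and 0.2 after IL-4, and 13 IL-4 transcripts were printed with a score of 0. The label on each transcript is that of the nearest promoter, so it can name a distant gene. Transcripts that carry the name Pycard outside that gene are not reported here.

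Gene bounds and strands came from GENCODE M21, and overlap of at least 1 bp counted. The gene value was the highest score among own-name, own-strand, in-gene transcripts. Log2 ratios of IL-4 over control were centred on the median gene. Ratios were computed with Python 3.11.15, pandas 2.3.3 and numpy 2.4.6, and the calculation was tested on simulated data. Promoter sequences came from RefSeq (GRCm38.p6), where 9 of 10 members matched by symbol and Gsdmd did not. No test was run, because there was no replicate, and shares over all genes stand beside the main counts.

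The members, the list of other pathway genes and the markers were chosen with earlier results of these data known, and the study itself names Nlrp3 and Il1b. All members were named. From the other genes, those past 2-fold that reached the median gene value in 1 library or both were named by size of ratio, then those called in 1 library alone with a score of at least 0.3. Myd88, Tab2, P2rx7, Nek7 and Il18 were chosen after their values were seen. Alternatives used other transcripts, a sum of score × length, other centring, filters on score, length and repeats, and other limits.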

Additional observations from a re-analysis of the deposited data

How the results depend on the processing

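Under the 11 alternatives the median centred log2 ratio of the members (-0.32) ran from -0.71 without repeat transcripts to -0.04 with all transcripts carrying the name. All 11 values stayed within the median of the members' rounding ranges. That band is wide, includes no change and reflects the printed decimals, so staying within it does not show that the value is stable. With so few members, their counts past 2-fold (1 higher and 1 lower) moved with most choices. The higher count was 2 with the transcript nearest the TSS, and 0 with the sum of score × length over transcripts of the gene's own name, with genes of at least 0.3, or over the whole rounding range. The lower count was 0 with all transcripts carrying the name or over the whole rounding range, 2 without centring or at 1.5-fold, and 3 with the transcript nearest the TSS or either sum of score × length. All-gene shares lower were 22.5% with the transcript nearest the TSS and 23.8% at 1.5-fold. They were 17.2% with the own-name sum and 16.6% with the sum whatever the name. The all-gene share higher was 9.63% with the transcript nearest the TSS. Without centring, 6.16% of all genes were higher and 23.6% lower. Among the other pathway genes, the count higher (0) was 1 of 32 with genes of at least 0.3, beside 12.9% of all genes. It was 1 of 33 without transcripts under 100 bp, beside 10.4%, and 2 of 37 with all transcripts carrying the name, beside 8.09%. With the transcript nearest the TSS it was 2 of 33, beside 9.63%, and without repeats 2 of 28, beside 9.97%. It was 3 of 33 at 1.5-fold, beside 19.7%, and 4 of 43 with missing values set to 0.1, beside 13.9%. With the sum it was 5 of 33, beside 16.7%, and 6 of 34 with the sum whatever the name, beside 16.8%. The count lower (6 of 33, beside 8.23%) was 10 of 33 at 1.5-fold, beside 23.8% of all genes. It was 7 of 33 with the transcript nearest the TSS, beside 22.5%, and 9 of 33 without centring, beside 23.6%. Without repeats it was 4 of 28, beside 10.8%, and with missing values set to 0.1 it was 8 of 43, beside 12.5%. With genes of at least 0.3 it was 5 of 32, beside 9.18%. How far the count stood from the all-gene share thus depended on the choice. With scores of at least 0.3, 1 member had an in-gene transcript after IL-4, and transcripts with no counterpart numbered 3 of 9 in control and 0 of 2 after IL-4. With 50% overlap, 8 of 16 had none after IL-4. Shares over all genes or transcripts were not computed for these settings, so these counts cannot be read as traits of the members. The cause was not tested. Of single members, Casp4 and Pycard stayed within their rounding ranges under each alternative that gave a value, though Casp4 was not past 2-fold (0.57) with the own-name sum. Nlrc4 stood at -1.0 and Aim2 at 1.0 with the transcript nearest the TSS, Nlrc4 at -0.71 without repeats, and Gsdmd at -0.04 with all transcripts carrying the name. The sum whatever the name was chosen after seeing the data. No paired analysis was possible because each condition had 1 library, and for the same reason no replicate could be left out.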

Other observations

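Near Il1a, the Gm14023 transcript of 0.2 was called after IL-4 alone, 2.0 kb from the gene on the opposite strand. It is a single call in a library in which 46.4% of in-gene transcripts had no counterpart in control.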
